A study of Mus musculus with 10 samples.

Results

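The genes of the enzymes that consume NAD+ and clear nicotinamide were compared between cochleae of mice given nicotinamide riboside (NR) and cochleae of non-treated mice. These were 9 of the 54532 genes listed in the count data, chosen by name: the glycohydrolase genes Cd38, Bst1 and Sarm1, the poly-ADP-ribose polymerase (PARP) genes Parp1, Parp2, Parp3 and Tnks, and Nnmt and Aox1 for methylation and oxidation of nicotinamide. The study sequenced RNA of whole cochlea from mtKeima mice, which carry a transgene for a pH-sensitive fluorescent protein targeted to mitochondria and are on a mixed genetic background. In the NR group (5 libraries), NR was dissolved in the drinking water at 7 mg/ml, or 24 mM, from 2 months of age for 10 months. The Vehicle group (5 libraries) drank regular water, and both groups carried the transgene and were 12 months old at collection. The labels give no animal identifier, so the p-values measure the spread between these libraries.

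NAD+ is both a redox cofactor and a substrate that several enzyme classes split, each releasing nicotinamide. CD38 and its relative BST1 (CD157) act largely at the cell surface, SARM1 destroys NAD+ inside injured axons, and PARPs transfer the ADP-ribose unit to proteins, as at DNA breaks. Nicotinamide is then either recycled to NAD+ or lost, by methylation through NNMT or by oxidation, with aldehyde oxidase acting on its methylated form. NR enters NAD+ synthesis as a precursor, so these genes encode the consuming and disposing side of the pathway whose precursor was given.

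Each library held 17060379 to 24419230 counts. Of all genes, 18329 passed the filter on low counts, among them all 9 genes described here, and the median log2 fold change over those 18329 was -0.01. The labels call the mice female and the study's methods describe males. In all 10 libraries Xist, the X inactivation RNA, was at 0.0882 to 0.405 CPM (counts scaled to a common library size). Ddx3y, a Y-linked gene, was at 64.5 to 85.0 CPM, so all 10 libraries showed the male pattern, as the methods describe. Cochlear identity was present in every library, since hair cell markers summed to 115 to 362 CPM and markers of cochlear supporting cells, stria and fibrocytes to 3207 to 6348 CPM. Vehicle 3 and Vehicle 4 stood apart: their hair cell sums were 326 and 362 CPM against at most 211 in any other library, their cochlear sums were 6348 and 5585 against at most 4899, and their neuron sums were 3848 and 4099 against at least 4485. Vehicle 2 was the library least like the others in its counts: the chi-square per degree of freedom was 72.8 to 117.9 in pairs with it and at most 55.5 in pairs without it. It also held the highest neutrophil sum, at 5655 CPM; without it 1015 genes were higher and 932 lower, and the same 2 of the 9 genes were called. Skeletal muscle markers summed to 782 CPM in NR 3 and 570 in NR 5, against 6.45 to 66.3 in the other libraries. No marker of these lists was at 0 in all libraries. In whole tissue, fewer cells of a type and less RNA per cell cannot be told apart.

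Divided by gene length, Parp1 had the highest level of the 9 genes and Nnmt the lowest. The level of Parp1 was 20.4 ± 1.52 CPM per kilobase (SD over the 10 libraries), above 84.5% of the tested genes. Parp3, at 9.73 ± 1.16 CPM per kilobase, and Parp2, at 9.46 ± 0.605, did not separate, since Parp3 was the higher in 5 of 10 libraries. Tnks followed at 5.93 ± 0.409 CPM per kilobase and was below both in every library. The glycohydrolase genes were lower. Sarm1 was at 3.79 ± 0.618 CPM per kilobase, Cd38 at 2.68 ± 0.406 and Bst1 at 2.15 ± 0.637. Aox1, at 2.70 ± 0.314 CPM per kilobase, lay beside Cd38 and exceeded it in 6 of 10 libraries, while Sarm1 exceeded Aox1 in 9 of 10 and Cd38 exceeded Bst1 in 9 of 10. Nnmt was at 0.506 ± 0.137 CPM per kilobase, above 10.1% of the tested genes. Among 16 PARP family genes measured, Parp1 held 16.5% of the summed per-length level, Parp3 ranked 3rd, Parp2 5th and Tnks 11th, behind its close relative Tnks2, which ranked 2nd at 10.3 CPM per kilobase.

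**Figure D1:**
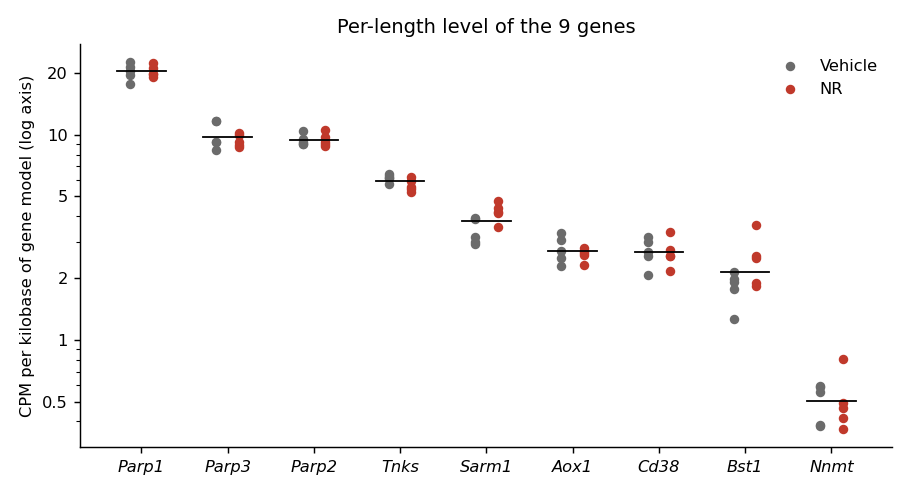
Per-length level (CPM per kilobase of gene model, log axis) of the 9 genes in each of the 5 Vehicle (grey) and 5 NR (red) libraries, with a line at the mean of all 10. Parp1 lies highest at 20.4 and Nnmt lowest at 0.506, and the Parp3 and Parp2 points overlap, as do those of Aox1, Cd38 and Bst1.

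Between NR and Vehicle, Sarm1 and Bst1 were the genes whose means were higher in NR at the study's threshold, an unadjusted p of 0.05, and no gene of the 9 was lower at that threshold. Across all tested genes, 4.83% were called higher and 4.88% lower by the same rule (edgeR's quasi-likelihood test). After Benjamini-Hochberg adjustment over the 18329 genes, 0 of the 9 genes and 0% of all genes passed, where the unadjusted calls were 886 higher and 894 lower, and DESeq2 called 102 genes at an adjusted p of 0.05, none of them among the 9. In no gene of the 9 did the groups separate completely; 0.769% of all genes had every NR library above every Vehicle library and 0.878% had every one below. The median log2 fold change of the 9 genes was 0.00. Without Vehicle 3 and Vehicle 4, the count of the 9 genes called higher went from 2 to 0, while over all 18671 genes then tested 767, or 4.11%, were called higher and 1042, or 5.58%, lower.

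**Figure D2:**
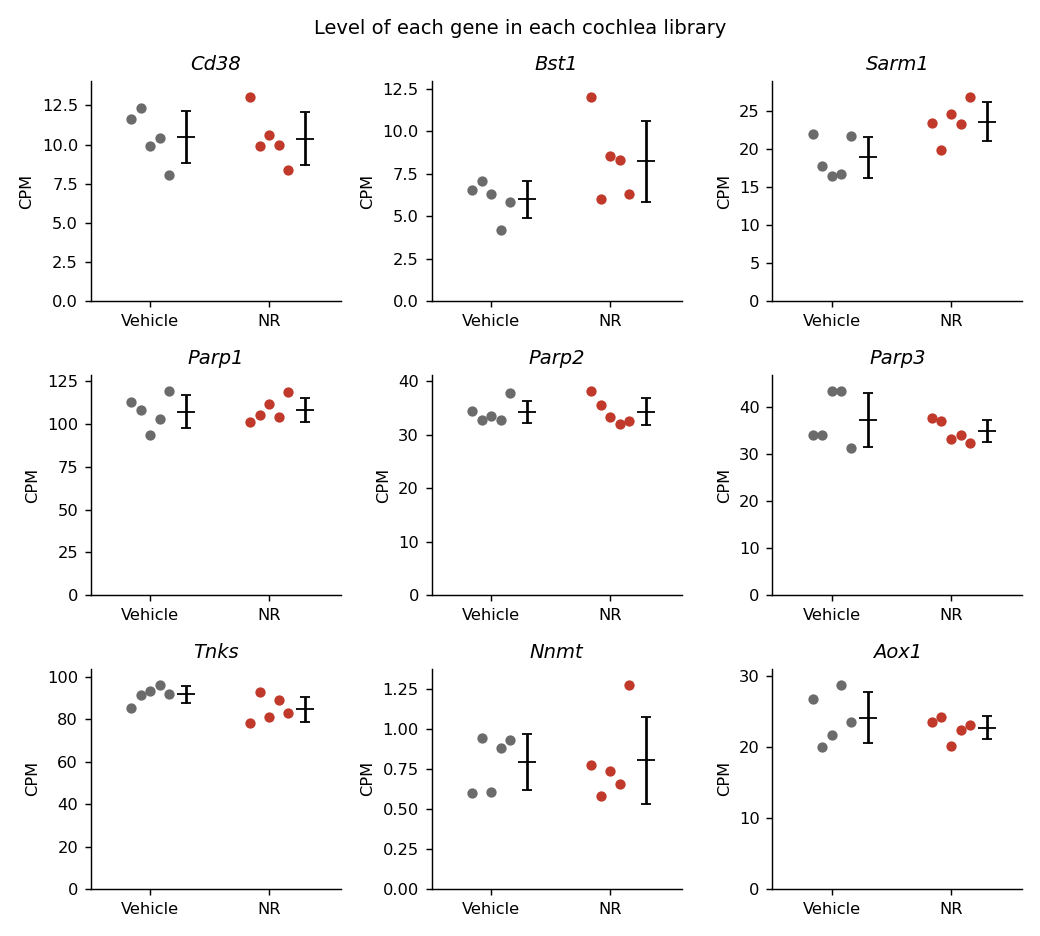
CPM of each gene in each library, replicates 1 to 5 from left to right within Vehicle (grey) and NR (red), with the mean and SD as a bar; each axis starts at 0. Sarm1 shows 4 of 5 NR libraries above all Vehicle libraries, Bst1 shows 3 of 5 with NR 1 highest at 12.0 CPM, and the groups overlap in every panel.

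Sarm1, whose product is the NAD+ hydrolase that executes axon degeneration, lies on the minus strand at chr11:78472330-78497754 (mm10). Its CPM was 23.5, 19.9, 24.7, 23.4 and 26.9 in NR 1 to NR 5, and 21.99, 17.8, 16.6, 16.8 and 21.8 in Vehicle 1 to Vehicle 5. NR 2 was the only NR library within the Vehicle range, and all 5 NR libraries were above the Vehicle median. The mean was 23.7 ± 2.54 CPM in NR and 19.0 ± 2.70 in Vehicle, a log2 fold change of 0.32 (SE 0.11, 95% interval 0.07 to 0.56). It passed the unadjusted threshold in edgeR and in DESeq2 but not after adjustment (edgeR adjusted p = 0.453, DESeq2 adjusted p = 0.238). An exact two-sided permutation test over all labelings of the libraries gave p = 0.0397, where the smallest possible is 0.00794. The unadjusted call held without any single library, with log2 fold changes of 0.28 to 0.38. Vehicle 3 and Vehicle 4, lowest in Sarm1, were the libraries with the highest hair cell and cochlear marker sums, and without both of them the log2 fold change was 0.21 and no longer called (edgeR adjusted p = 0.587). In the cochlear list all 8 markers had negative log2 fold changes and 5 were called lower in NR, where 4.88% of all genes were. In the hair cell list all 7 were negative (median -0.41) and 0 were called. NR 5 and NR 3, highest in Sarm1, held the highest skeletal muscle sums, with 5 of 6 such markers called higher in NR. They also held the highest Schwann cell sums, at 2139 and 2391 CPM. All 4 Schwann cell markers had positive log2 fold changes (median 0.17) and 0 were called. Neuron markers summed to 5118 to 5738 CPM in NR and 3848 to 5851 in Vehicle, with 1 of 7 called higher (Tubb3, log2 fold change 0.49). Of 5 endothelium markers, 2 were called higher. Of all genes, 4.83% were called higher. The part of tissue composition in the Sarm1 difference was not tested further.

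Bst1, which encodes the cell-surface enzyme CD157 known from bone marrow stroma and myeloid cells, lies on the plus strand at chr5:43818885-43843986, 24567 bases before the start of Cd38. Its CPM was 12.0, 6.04, 8.52, 8.30 and 6.31 in NR 1 to NR 5, and 6.55, 7.09, 6.31, 4.19 and 5.85 in Vehicle 1 to Vehicle 5. NR 1, NR 3 and NR 4 were above every Vehicle library, and NR 2 and NR 5 were within the Vehicle range. The mean was 8.23 ± 2.39 CPM in NR and 6.0 ± 1.11 in Vehicle, a log2 fold change of 0.46 (SE 0.21, 95% interval 0.00 to 0.91). It passed the unadjusted threshold narrowly in edgeR, and also in DESeq2, but not after adjustment (edgeR adjusted p = 0.512, DESeq2 adjusted p = 0.418). The exact permutation test gave p = 0.0952.

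The Bst1 call rested on several libraries. Without NR 1 the log2 fold change was 0.29 and was not called (edgeR adjusted p = 0.776). The call was also lost without Vehicle 4, at 0.36, without Vehicle 5 or NR 3, at 0.45, without NR 4, at 0.46, and without Vehicle 3 or Vehicle 1, at 0.49. NR 1 also held the highest sums of the macrophage markers, at 599 CPM against at most 374 elsewhere, of the fibroblast markers, at 1201 CPM, and of the bone markers, at 367 CPM. All 7 macrophage markers had positive log2 fold changes (median 0.14), but none was called. Of 6 fibroblast markers, 1 was called higher in NR (Dpt, log2 fold change 0.55), while 3 had negative log2 fold changes and the median was 0.01. The median fibroblast sum was 943 CPM in NR and 1045 CPM in Vehicle. Neutrophil markers summed to 3982 to 4672 CPM in 4 of 5 NR libraries, among them the 3 highest in Bst1, to 1391 in NR 2, and to 1396 to 5655 in Vehicle, with 1 of 8 called higher (Retnlg, log2 fold change 0.75). Cochlear marker sums were highest in Vehicle 3 and Vehicle 4, the latter lowest in Bst1. The part of any of these cells in the Bst1 values was not tested. Bst1 shares 98 bases, 2.95% of its exonic length, with Fbxl5 on the opposite strand, whose mean level was 70.6 CPM, and the counting was run in its default mode, which ignores strand, so reads of the shared bases cannot be assigned to either gene.

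Cd38, the main NAD+ glycohydrolase of many tissues and the neighbour of Bst1 at chr5:43868553-43912375 on the plus strand, showed no difference beyond the spread. Its CPM was 13.01, 9.93, 10.6, 9.96 and 8.39 in NR 1 to NR 5, and 11.6, 12.3, 9.91, 10.4 and 8.03 in Vehicle 1 to Vehicle 5. The groups overlapped almost completely, with NR 1 the highest library and Vehicle 5 the lowest. The log2 fold change was -0.01 (SE 0.14, 95% interval -0.33 to 0.31; edgeR adjusted p = 0.986). The exact permutation test gave p = 0.968. The Bst1 to Cd38 ratio of per-length levels was 0.919 ± 0.136 in NR and 0.681 ± 0.141 in Vehicle, and 4 of 5 NR libraries were above all Vehicle libraries. The difference of log2 CPM between the genes was 0.44 higher in NR (exact permutation p = 0.0317, adjusted to 0.0476 over 3 gene pairs). These 3 pairs were chosen after the values had been seen, and this p passed 0.05 in 3 of 10 fits that left out 1 library and was 0.0556 to 0.0635 in the rest; without Vehicle 3 and Vehicle 4 the difference was 0.33 (exact permutation p = 0.107).

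**Figure D3:**
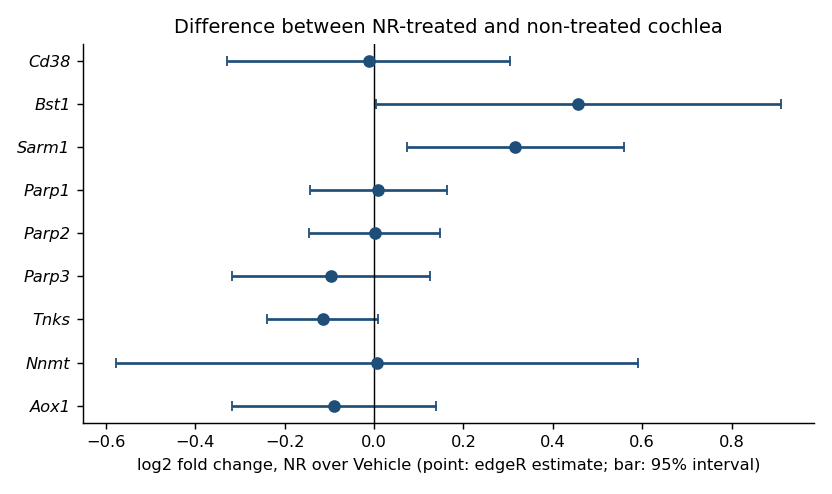
Log2 fold change of each gene, NR over Vehicle, from the edgeR fit across all tested genes (point) with its 95% interval (bar). The intervals of Sarm1 (0.07 to 0.56) and Bst1 (0.00 to 0.91) lie above 0, the others include 0, and Nnmt has the widest, from -0.58 to 0.59.

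The PARP genes differed little between the groups. Parp1, the main sensor of DNA strand breaks and the largest consumer of NAD+ after DNA damage, lies on the plus strand at chr1:180568924-180601254. Its CPM was 101, 105, 112, 104 and 119 in NR 1 to NR 5, and 113, 108, 93.5, 103 and 119 in Vehicle 1 to Vehicle 5. No NR library lay outside the Vehicle range. The exact permutation test gave p = 0.865. The group difference was 0.01 on the log2 scale (SE 0.07, 95% interval -0.14 to 0.16; edgeR adjusted p = 0.977), and its sign turned without NR 5 (-0.02), Vehicle 3 (-0.02) or Vehicle 4 (-0.00), and without both of the latter (-0.06).

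Parp2, which shares the break-sensing role of Parp1, lies on the plus strand at chr14:50807841-50821301. Its CPM was 38.2, 35.5, 33.3, 32.0 and 32.6 in NR 1 to NR 5, and 34.5, 32.8, 33.5, 32.8 and 37.8 in Vehicle 1 to Vehicle 5. NR 1 was the highest library, NR 4 and NR 5 were the lowest, and the group means were both 34.3 CPM. Their log2 fold change was 0.00 (SE 0.07, 95% interval -0.15 to 0.15; edgeR adjusted p = 0.996), with an exact permutation p = 0.992.

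Parp3, a mono-ADP-ribosyltransferase of the double-strand break response, lies on the minus strand at chr9:106470322-106476949. Its CPM was 37.6, 36.9, 33.1, 34.0 and 32.3 in NR 1 to NR 5, and 33.9, 34.1, 43.3, 43.3 and 31.3 in Vehicle 1 to Vehicle 5. Vehicle 3 and Vehicle 4 were the highest libraries, and the remaining Vehicle libraries lay among the NR values. The coefficient of variation was 15.4% in Vehicle and 6.79% in NR. The log2 fold change was -0.10 (SE 0.10, 95% interval -0.32 to 0.13; edgeR adjusted p = 0.764), with an exact permutation p = 0.444. Without Vehicle 3 and Vehicle 4, whose hair cell marker sums were the highest, the log2 fold change turned to 0.08 (edgeR adjusted p = 0.784). It was -0.02 without Vehicle 3 alone, -0.03 without Vehicle 4, -0.06 without NR 5 and -0.15 without Vehicle 5.

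Tnks, encoding tankyrase, which marks telomere and WNT pathway proteins with poly-ADP-ribose, lies on the minus strand at chr8:34826460-34965690. Its CPM was 78.1, 92.7, 80.9, 89.0 and 82.9 in NR 1 to NR 5, and 85.2, 91.7, 93.6, 96.2 and 91.9 in Vehicle 1 to Vehicle 5. NR 1, NR 3 and NR 5 were below every Vehicle library, and NR 2 and NR 4 were within the Vehicle range. The mean was 84.7 ± 6.01 CPM in NR and 91.7 ± 4.06 in Vehicle, a log2 fold change of -0.12 (SE 0.06, 95% interval -0.24 to 0.01). This did not pass the threshold (edgeR adjusted p = 0.542, exact permutation p = 0.0714). It passed unadjusted without NR 2, at -0.14, and without Vehicle 1, at -0.13, and in no other fit. The log2 fold change of Tnks was -0.08 without NR 1, -0.09 without NR 3, and -0.08 without both Vehicle 3 and Vehicle 4. The libraries lowest in Tnks were NR 1, NR 3, NR 5 and Vehicle 1. They held the highest Schwann cell marker sums, at 2018, 2391, 2139 and 2052 CPM, against 1373 to 1879 CPM in the others. All 4 Schwann cell markers had positive log2 fold changes and 0 were called. The part of Schwann cells in the Tnks values was not tested. The ratio of Tnks to Tnks2 was 0.567 ± 0.0433 in NR and 0.592 ± 0.0483 in Vehicle (exact permutation p = 0.421).

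**Figure D4:**
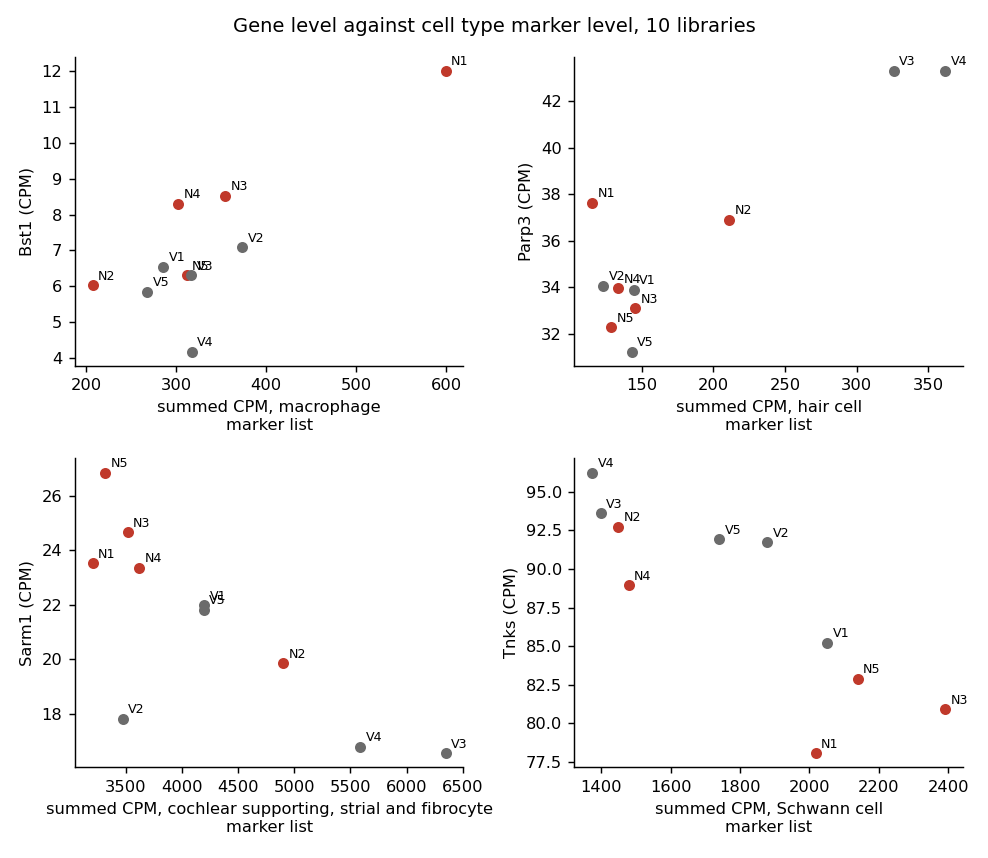
CPM of 4 genes against the summed CPM of a cell type marker list in the 10 libraries (N for NR, red, and V for Vehicle, grey), with axes not starting at 0. The lists drawn were picked, and lists not drawn also followed these genes. Pearson's r of log2 values was -0.81 for Parp3 with neuron markers, beside 0.84 with hair cell markers. For Tnks it was 0.75 with cochlear markers, beside -0.83 with Schwann cell markers. For Sarm1 it was -0.75 with hair cell markers, beside -0.78 with cochlear markers. For Bst1 it was -0.68 with hair cell markers, beside 0.68 with macrophage markers. Bst1 is highest in NR 1 with a macrophage sum of 599, Parp3 is highest in Vehicle 3 and Vehicle 4 with hair cell sums of 326 and 362, Sarm1 is lowest in the same libraries, and Tnks is lowest in the libraries with Schwann cell sums of 2018 or more.

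Of the genes for clearance of nicotinamide, neither differed beyond the spread. Nnmt, encoding nicotinamide N-methyltransferase and lying on the minus strand at chr9:48591877-48605153, was near the limit of detection, with 12 to 22 counts in each library. The counts were 16, 13, 17, 15 and 22 in NR 1 to NR 5, and 12, 21, 15, 20 and 20 in Vehicle 1 to Vehicle 5. The exact Poisson 95% interval ran from 6.20 to 21.0 for the lowest count and from 13.8 to 33.3 for the highest, covering counting error only, so the libraries could hardly be separated by counting. Scaled to depth, Nnmt was at 0.771, 0.582, 0.736, 0.655 and 1.27 CPM in NR 1 to NR 5, and at 0.596, 0.943, 0.607, 0.882 and 0.929 CPM in Vehicle 1 to Vehicle 5. NR 5, the shallowest library, was highest, and the other NR libraries lay within or just below the Vehicle range. The exact permutation test gave p = 1. For Nnmt the log2 fold change was 0.01 (SE 0.26, 95% interval -0.58 to 0.59; edgeR adjusted p = 0.996), so that a difference of moderate size was not detectable at this depth.

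Aox1, encoding the molybdenum-dependent aldehyde oxidase that makes pyridones from methylated nicotinamide, lies on the plus strand at chr1:58029931-58106413. Its CPM was 23.6, 24.3, 20.1, 22.4 and 23.1 in NR 1 to NR 5, and 26.7, 19.98, 21.7, 28.7 and 23.6 in Vehicle 1 to Vehicle 5. All NR libraries lay inside the Vehicle range, and Vehicle 4 and Vehicle 1 were the highest. The coefficient of variation was 7.10% in NR and 14.8% in Vehicle. Aox1 had a log2 fold change of -0.09 (SE 0.10, 95% interval -0.32 to 0.14; edgeR adjusted p = 0.784), with an exact permutation p = 0.484. The log2 fold change was -0.01 without Vehicle 4, -0.04 without Vehicle 1 or NR 3, and -0.14 without Vehicle 2.

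Other genes of these pathways were taken from 8 lists of 58 genes, of which 56 were tested. The lists were chosen with earlier results of these data known, so their counts and shares are descriptions and do not measure enrichment. At the unadjusted threshold 8 were higher in NR, or 14.3%, and 2 were lower, or 3.57%, against 4.83% and 4.88% of all genes. The median log2 fold change was -0.01, as over all genes, and 0 passed after adjustment in edgeR. Without Vehicle 3 and Vehicle 4 the counts were 6 and 3, where 4.11% and 5.58% of all genes were called. The count of lower genes was 0 without NR 3, without Vehicle 2 or without Vehicle 3.

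Of 12 other PARP family genes, 1 was higher and none lower, and their median log2 fold change was -0.02. The higher gene was Parp6, a mono-ADP-ribosyltransferase known from neurons, at 0.14 (SE 0.06, edgeR adjusted p = 0.479). Tnks2 was the most abundant by CPM. Of 9 genes that remove or read ADP-ribose, Macrod2, a hydrolase of protein-bound ADP-ribose, was higher by 0.33 (SE 0.13, adjusted p = 0.476), Oard1, a hydrolase of the same linkage, was lower at -0.17 (SE 0.07, adjusted p = 0.484), and Adprh was the most abundant by CPM. Among 6 single-strand break repair genes, Xrcc1, the scaffold that PARP activity recruits and the most abundant of the list, was lower at -0.23 (SE 0.09, adjusted p = 0.476). Without Vehicle 3 and Vehicle 4 the log2 fold changes were 0.08 for Parp6, 0.18 for Macrod2 and -0.09 for Xrcc1, and these 3 genes were no longer called. These calls also rested on single libraries. The Oard1 call was lost in 6 of 10 fits that left out 1 library, at -0.16 without NR 1, Vehicle 2 or Vehicle 3, -0.14 without NR 5, -0.13 without NR 3 and -0.12 without Vehicle 1. It was also lost with the replicate number as a block, at -0.17, and over all genes with at least 1 read, at -0.15. For Xrcc1 it was lost in 7 of 10, at -0.16 without Vehicle 4, -0.18 without Vehicle 3, -0.20 without NR 5, -0.21 without NR 3, -0.22 without NR 1 or Vehicle 2 and -0.23 without NR 2. Parp6 was not called without NR 1, at 0.14, or without Vehicle 3 or Vehicle 4, at 0.13, and Macrod2 was not called without NR 3, at 0.32, NR 5, at 0.30, Vehicle 3, at 0.27, or Vehicle 4, at 0.29.

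Of 4 tested genes of the ecto-ADP-ribosyltransferase family, named for its use of NAD+ outside the cell, Art1 and Art5 were higher. Art1 was at 18.2 ± 4.94 CPM in NR and 11 ± 2.98 in Vehicle, a log2 fold change of 0.72 (SE 0.21, edgeR adjusted p = 0.423). Art5 was at 2.51 ± 0.406 CPM in NR and 1.79 ± 0.160 in Vehicle, a log2 fold change of 0.49 (SE 0.16, adjusted p = 0.436). Both are known from skeletal muscle. NR 3 and NR 5, where Art1 was highest at 25.9 and 19.4 CPM and Art5 at 2.90 and 2.84 CPM, were the libraries with the highest skeletal muscle marker sums, and 5 of 6 skeletal muscle markers were called higher in NR. In other libraries Art1 and the muscle sum ranked differently. Art1 was at 15.7 CPM in Vehicle 4, with a muscle sum of 7.10 CPM, and at 9.13 CPM in Vehicle 1, with 64.0 CPM. It was at 13.5 and 14.3 CPM in NR 1 and NR 2, with muscle sums of 8.05 and 21.8 CPM. The unadjusted calls of Art1 and Art5 held in all 17 other fits, at log2 fold changes of 0.57 to 0.89 and 0.44 to 0.58. The part of muscle in these values was not tested. Art3 was the most abundant gene of the list by CPM.

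In a list of 8 genes, which held aldehyde oxidase and cofactor genes with Cyp2e1 added, Cyp2e1 and Mocs2 were higher. Cyp2e1, a cytochrome P450 best known for ethanol oxidation that also forms nicotinamide N-oxide, was at 11.9, 14.6, 8.57, 9.69 and 10.5 CPM in NR 1 to NR 5, and at 5.51, 2.20, 4.69, 2.47 and 2.18 CPM in Vehicle 1 to Vehicle 5. Every NR library was above every Vehicle library. Its log2 fold change was 1.69 (SE 0.29, edgeR adjusted p = 0.224), and DESeq2 called it at an adjusted p of 6.47e-06. Adipocyte marker sums were 91.0 to 165 CPM in NR and 73.6 to 95.4 in Vehicle. Of 7 tested markers, 4 were called higher: Cidec (mean 7.02 CPM in NR, 0.859 in Vehicle), Plin1 (11.2 and 1.36), Cfd (19.6 and 3.83) and Retn. Plin4 and Thrsp, the most abundant of the list, were at log2 fold changes of 0.07 and 0.02. The study also found Cidec and Plin1 raised with NR by RT-PCR in cochlea, and CIDEC raised in cochlear protein and in HEI-OC1 cells. For PLIN1 it reported only a trend upward in cochlear protein and slightly lower levels in HEI-OC1 cells. The part of adipocytes in the Cyp2e1 values was not tested. Mocs2, a subunit of the enzyme that makes the molybdenum cofactor of Aox1 and the most abundant of its list, was at 47.8 ± 2.39 CPM in NR and 41.9 ± 1.79 in Vehicle, without overlap of the groups (log2 fold change 0.19, SE 0.05, adjusted p = 0.420). The other aldehyde oxidase genes, Aox2, Aox3 and Aox4, were not called.

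Of 6 genes of the methyl donor cycle that feeds Nnmt, Adk, the adenosine kinase that removes a product of methylation, was higher without overlap of the groups, at 53.6 ± 2.55 CPM in NR and 47.0 ± 3.45 in Vehicle (log2 fold change 0.19, SE 0.06, edgeR adjusted p = 0.436). Ahcyl1, the most abundant at 259.6 CPM, was not called. None of 5 NAD+ pyrophosphatase and ectonucleotidase genes was called, of which Enpp1 was the most abundant by CPM.

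Among 6 genes of the axon degeneration program in which Sarm1 acts, Stmn2, an axonal regulator of microtubules, was higher. It was at 160, 128, 188, 147 and 173 CPM in NR 1 to NR 5, and at 157, 115, 87.0, 86.3 and 122 CPM in Vehicle 1 to Vehicle 5. Vehicle 3 and Vehicle 4, with the lowest neuron marker sums, were lowest. Vehicle 1, with the next lowest neuron sum at 4485 CPM, was the highest Vehicle library in Stmn2. Vehicle 5, with the highest neuron sum at 5851 CPM, was at 122 CPM. The log2 fold change was 0.49 (SE 0.16, edgeR adjusted p = 0.440), and 0.28 and no longer called without Vehicle 3 and Vehicle 4. The part of neurons in the Stmn2 values was not tested. Nmnat2, the axonal NAD+ synthase that holds SARM1 inactive, was at -0.08 (SE 0.08, adjusted p = 0.761), and Mycbp2, the ligase that removes it and the most abundant of the list by CPM, was at -0.06 (adjusted p = 0.738). The Sarm1 to Nmnat2 ratio of per-length levels was 0.208 ± 0.0347 in NR and 0.157 ± 0.0238 in Vehicle, with 3 of 5 NR libraries above all Vehicle libraries. The difference of log2 CPM between them, also a pair chosen after the values had been seen, was 0.39 higher in NR (exact permutation p = 0.0317, adjusted to 0.0476 over the 3 pairs). It was 0.32 to 0.49 without 1 library, with the call lost in 7 of 10 such fits (exact permutation p up to 0.0714), and 0.33 without Vehicle 3 and Vehicle 4 (exact permutation p = 0.143).

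**Figure D5:**
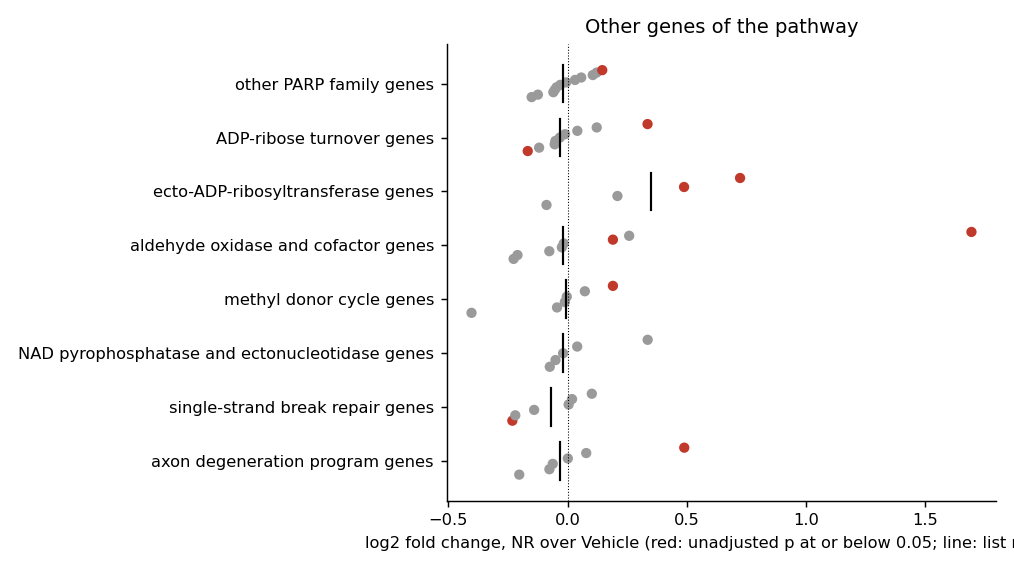
Log2 fold change, NR over Vehicle, of the 56 tested genes in 8 pathway lists; red points have an edgeR unadjusted p at or below 0.05, grey points do not, and the vertical line of each list is its median. Most points lie near 0, and the ecto-ADP-ribosyltransferase list has the highest median, at 0.35. Cyp2e1, a cytochrome P450 gene plotted with the aldehyde oxidase and cofactor list, lies farthest to the right at 1.69.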

How the data were processed

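Gene counts were deposited for 10 cochlea libraries, 1 table a library with gene length and location. Per the labels and methods, the authors made them from RNA of NEBNext Ultra libraries by alignment with STAR 2.6.1d to mm10 and counting with featureCounts 1.5.0, whose default ignores strand; fastp, CASAVA and DESeq2 1.26.0 are also in the submitters' processing notes, and the annotation release is not given in the sources used here. Coordinates and exonic lengths of the 9 genes equalled those of GENCODE M21. The mtKeima transgene is not part of the mm10 assembly.

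Here, counts were tested with edgeR 4.0.16 (TMM, filterByExpr, quasi-likelihood test, no covariate) in R 4.3.3, with a call at an unadjusted p of 0.05, the study's threshold, and Benjamini-Hochberg adjusted p over all tested genes beside it. CPM used TMM-scaled library sizes and was divided by gene length in kilobases for levels compared between genes. Exact two-sided permutation tests used log2 CPM with a prior count of 2. DESeq2 1.42.0, other scalings, filters and left-out libraries were alternatives, and the code was tested on simulated counts. Named genes were the 9, and in each list the most abundant and up to 3 genes with the smallest p at the threshold; Aox2, Aox3, Aox4, Nmnat2, Xist, Ddx3y and Fbxl5 were added after values were seen. The 9 genes, the pathway lists and the marker lists were chosen with earlier results of these data known. Total counts were 17060379 to 24419230 a library, and no pair of libraries agreed within sampling noise.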

Additional observations from a re-analysis of the deposited data

Results flagged for a closer look

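Nnmt in NR 5, at 1.27 CPM, lay far from the other NR libraries: the gap to its nearest neighbour was 0.726 of the range of the group, above Dixon's 95% critical value of 0.71 for 5 samples. It rests on 22 counts in the shallowest library. It was the only such value among the 18 groups of 5 tested (9 genes in NR and in Vehicle), and chance flags about 1 in 20 groups.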

How the results depend on the processing

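With the replicate number as a block, 1 of the 9 genes was called higher, Sarm1, since Bst1 was at a log2 fold change of 0.44 (edgeR adjusted p = 0.585), 1 pathway gene was lower, and Nnmt turned to -0.0025. The numbers were not taken as pairs: deviations of same-numbered libraries correlated between -0.22 and 0.17, and only NR 1 correlated best with its own number. Over all genes with at least 1 read, 1414 genes were higher, 1 pathway gene was lower and Cd38 turned to 0.0020. Without 1 library, the calls ranged from 669 (without NR 3) to 1414 (without NR 2) genes higher and from 484 (without NR 3) to 1059 (without Vehicle 1) lower, also 521 without NR 1 and 558 without Vehicle 3, from 1 to 2 of the 9 genes higher and 0 to 1 lower, and from 0 to 3 pathway genes lower. The log2 fold changes then ranged from -0.098 to 0.065 for Cd38, -0.023 to 0.050 for Parp1, -0.031 to 0.040 for Parp2 and -0.20 to 0.11 for Nnmt. Leaving out Vehicle 3 and Vehicle 4, an alternative chosen after seeing the data, gave 0 of the 9 genes called and turned Parp1 to -0.065, Parp2 to -0.025, Parp3 to 0.078 and Nnmt to -0.047. The cause of these changes was not tested. The directions of Sarm1, Bst1, Tnks and Aox1 held in every fit run. Nnmt has no value under the filter of 1 CPM in 5 samples, and a prior count of 0.5 moved no permutation call. Counts of 12 to 22 limit Nnmt, and the interval of each log2 fold change limits the rest.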

Other observations

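For each of the 9 genes, the 3 tested genes whose log2 CPM followed it most closely over the 10 libraries were named by Pearson's r among 18328 genes. The points share libraries, depth and group, and the values are descriptions. Bst1 was followed most closely by Clec2d (r = 0.98, and 0.97 without the 2 libraries farthest from the Bst1 median), Cyp4a12a (0.97 and 0.84) and Msln (0.95 and 0.83). Sarm1 was followed by Pfkp, a platelet-type phosphofructokinase (0.97 and 0.93), Slitrk3, a synaptic adhesion protein (0.96 and 0.92) and Tspear (0.96 and 0.92), where the libraries left out were Vehicle 3 and Vehicle 4. Parp3 was followed by Plod2, a collagen lysyl hydroxylase (0.99 and 0.94), Rhoc (0.97 and 0.89) and Itm2b (0.97 and 0.89), with the same libraries left out. Tnks was followed by Agfg2 (0.97 and 0.97), Cldn12 (0.96 and 0.98) and Rasl12 (0.96 and 0.94).

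Cd38 was followed by Slc35b1 (0.95 and 0.97), Chmp1b (0.94 and 0.90) and Pdia3 (0.92 and 0.84), of which Slc35b1 and Pdia3 serve the endoplasmic reticulum. Parp1 was followed by Hk1, a hexokinase (0.94 and 0.90), Cela1 (0.93 and 0.89) and Kank4 (0.93 and 0.85). Aox1 was followed by Rsbn1l (0.92 and 0.92), Pik3r4 (0.91 and 0.76) and Hmx2 (0.90 and 0.78). Nnmt was followed by Brpf1 (0.94 and 0.89), Slc26a8 (0.90 and 0.78) and Mx2 (0.89 and 0.87), at the low counts given above. The closest genes to Parp2 rested on few libraries: 1810032O08Rik went from 0.88 to 0.50, Adamts17 from 0.86 to 0.66 and Tepsin from 0.85 to 0.42 without NR 1 and Vehicle 5.

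Among the 9 genes themselves, the lowest correlations over the 10 libraries were those of Parp1 with Parp3 (r = -0.86), Sarm1 with Tnks (-0.80), Bst1 with Tnks (-0.79) and Sarm1 with Parp3 (-0.73), and the highest was that of Sarm1 with Parp1 (0.61). The neighbours Bst1 and Cd38 were at 0.49. Vehicle 3 and Vehicle 4 were the lowest libraries in Sarm1 and the highest in Parp3 and Tnks. The correlations among the 9 genes were not recomputed without them.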
